A study of Rattus norvegicus with 9 samples.

Results

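The mitochondrial genome genes are the 13 genes that the deposited expression table places on chromosome MT, of 22077 intact genes in all. They were taken by that column alone. By symbol, 7 encode subunits of complex I (Mt-nd1, Mt-nd2, Mt-nd3, Mt-nd4, Mt-nd4l, Mt-nd5 and Mt-nd6), 1 a subunit of complex III (Mt-cyb), 3 subunits of complex IV (Mt-co1, Mt-co2 and Mt-co3) and 2 subunits of complex V (Mt-atp6 and Mt-atp8). The ribosomal and transfer RNA genes of the same genome were not analysed here.

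The cells were peripheral blood mononuclear cells (PBMC), that is, lymphocytes, monocytes and their neighbours in the blood fraction that excludes most granulocytes and red cells. They came from Sprague-Dawley rats of wild-type genotype, and the series as a whole asks about the aryl hydrocarbon receptor in pulmonary arterial hypertension. One group was in normoxia at day 0, and the others were in the Sugen-hypoxia model (labelled SuHx; a VEGF receptor inhibitor given with a period of low oxygen) at day 28 and at day 56, with 3 libraries in each of the 3 groups. No control of the later days is among the samples, so treatment, time and age cannot be told apart, and the animals' ages are not in the labels. Nothing in the labels ties a replicate to its own animal, so every p-value here is about the spread between these libraries, part of which may be technical.

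Mitochondria keep a small circular genome whose protein-coding genes all encode subunits of the respiratory chain or of ATP synthase, while most subunits of the same complexes are encoded in the nucleus. Both strands are transcribed as long precursors by a dedicated polymerase, POLRMT, with TFAM and TFB2M, and the transfer RNAs between the genes are cut out to release the messengers. Most messengers lie on one strand, and ND6 is read from the other. ATP8 with ATP6, and ND4L with ND4, overlap and stay together on shared messengers. The steady level of these messengers depends on the number of genomes, on transcription and on their stability, for which the LRPPRC and SLIRP proteins are known.

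On the rn6 build the genes lie between MT:2740 and MT:15278, each as 1 exon with no intron. Their exon lengths ran from 204 bases for Mt-atp8 to 1830 bases for Mt-nd5. Mt-atp8 (MT:7758-7961) shared 43 bases with Mt-atp6 (MT:7919-8599), Mt-nd4l (MT:9870-10166) shared 7 bases with Mt-nd4 (MT:10160-11537), and Mt-nd5 (MT:11736-13565) shared 23 bases with Mt-nd6 (MT:13543-14061). Mt-atp6 and Mt-co3 (MT:8599-9382) shared 1 base. Whether the counting used the strand is not given in the sources used here, so reads of overlapping neighbours, and for Mt-nd6 reads of the opposite strand, cannot be told apart.

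The libraries held between 22148400 and 39947430 exon reads, and 404324 to 1372728 of these were mitochondrial. The 5 most abundant globin genes, which mark red cells and their precursors, took 43.0%, 49.3% and 56.3% of exon reads in normoxia, 1.42%, 4.83% and 29.0% at day 28, and 40.5%, 43.3% and 44.4% at day 56 (replicates 1, 2 and 3 in each case, as in all lists of 9 values here). Intron reads made up 14.6%, 6.60% and 5.37% of gene reads in normoxia, 24.9%, 21.4% and 14.2% at day 28, and 16.9%, 14.0% and 11.9% at day 56. Markers of T, B and NK cells and of monocytes were read in every library, with 5 of 5, 4 of 4, 5 of 5 and 5 of 5 genes. Platelet markers, which are of interest because platelets carry mitochondria but no nucleus, were read at 7 of 8 genes, with Gp5 at 0 reads in every library. Their summed level was 719 to 3435 CPM in normoxia, 551 to 868 CPM at day 28 and 1922 to 3811 CPM at day 56. CPM in these results are counts relative to the library's total after that total was multiplied by a scaling factor (TMM, trimmed mean of M-values). The factor ran from 0.573 in replicate 3 of normoxia to 1.70 in replicate 1 of day 28. Levels relative to the unscaled total would therefore compare differently between groups. The column names carry running numbers whose meaning is not stated. Replicate 1 of normoxia and of day 56 have the numbers 46 and 47, replicates 2 and 3 of both groups 61 to 64, and the day 28 libraries 68 to 70.

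The mitochondrial genome supplied a few percent of all exon reads. The share was 2.56%, 3.44% and 3.05% in normoxia, 4.86%, 4.32% and 4.11% at day 28, and 2.83%, 1.60% and 1.58% at day 56. The 3 day 28 libraries lay above all others, while day 56 overlapped normoxia through its replicate 1. The Wilson 95% interval of a share was at most 0.0179 percentage points wide, which covers counting error only. Day 28 exceeded normoxia by 1.42 percentage points (4.43% ± 0.389 against 3.01% ± 0.441, SD, n = 3, exact two-sided permutation test, p = 0.1). Day 56 minus day 28 was -2.43 points (exact permutation p = 0.1), and day 56 minus normoxia was -1.01 points (exact permutation p = 0.2). With 3 libraries against 3 the smallest p this test can give is 0.1, and over the 24 single-value tests made the adjusted p was 0.96 for each of these.

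The sign of the day 28 difference depended on the total. Outside the 5 globin genes, the mitochondrial share was 4.48%, 6.78% and 6.97% in normoxia, 4.93%, 4.54% and 5.78% at day 28, and 4.75%, 2.82% and 2.85% at day 56. On that denominator the day 28 libraries lay within the normoxia range, and the difference was -0.99 points (5.09% ± 0.636 against 6.08% ± 1.39, SD, n = 3, exact permutation p = 0.4). Day 56 minus normoxia was -2.61 points (exact permutation p = 0.2), again with replicate 1 of day 56 above replicate 1 of normoxia. Within the column numbers 46 and 47 the share of all exon reads went from 2.56% in normoxia to 2.83% at day 56, and within 61 to 64 from 3.44% and 3.05% to 1.60% and 1.58%. The direction therefore differed between the 2 runs of numbers, and day 28 cannot be told apart from its own run.

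**Figure D1:**
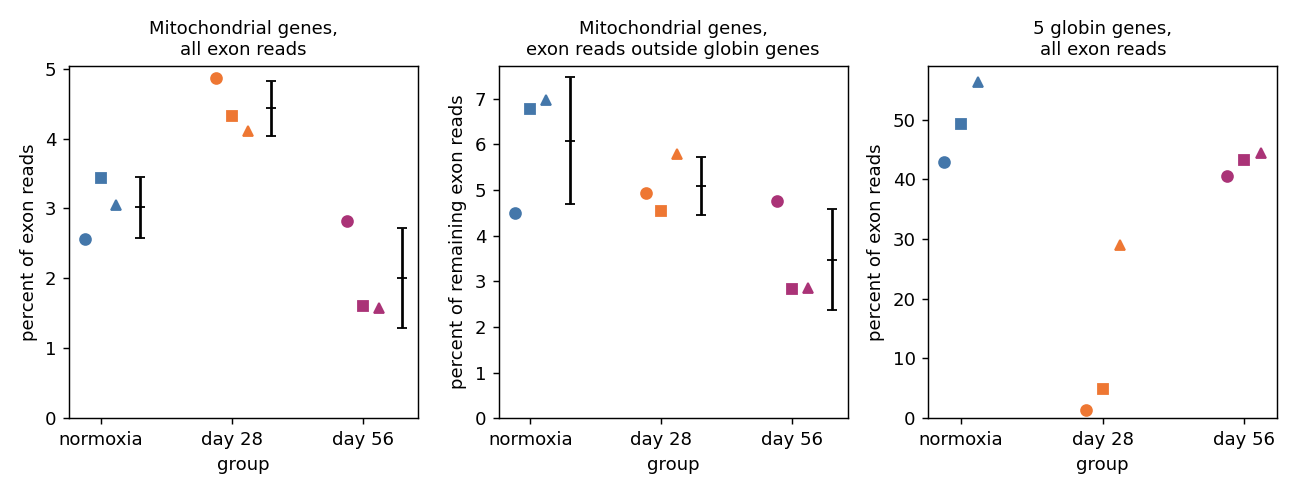
Share of exon reads by group and library: the 13 mitochondrial genes as percent of all exon reads (left), as percent of exon reads outside the 5 globin genes (middle), and the globin genes themselves (right). Circles, squares and triangles are replicates 1, 2 and 3, and black bars in the left and middle panels are mean ± SD (n = 3). Day 28 was highest on all exon reads (4.11% to 4.86%) but lay inside the normoxia range once globin reads were set aside.

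Per length of exon, the 13 genes kept much the same order in each group. In the authors' RPKM, a level corrected for the size of the gene and of the library, Mt-co3 had the highest mean in every group, with 6733 ± 2279.9 in normoxia, 7133 ± 439 at day 28 and 3734 ± 907 at day 56 (SD, n = 3). Mt-co1 came next, at 5146 ± 1375, 6845 ± 403 and 3238 ± 793 RPKM. These ranges overlapped in every group, and Mt-co3 exceeded Mt-co1 in 3 of 3 normoxia, 2 of 3 day 28 and 3 of 3 day 56 libraries. Mt-atp6, Mt-co2, Mt-cyb, Mt-nd1 and Mt-nd2 followed in that order in each group.

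At the low end stood complex I genes. Mt-nd6 was lowest in each group by mean RPKM, at 165 ± 25.8, 238 ± 43.5 and 119 ± 36.7 (SD, n = 3), and lay below Mt-nd5 in all 9 libraries although the ranges overlapped. Mt-nd4l was nevertheless below Mt-nd6 in all but 1 library of each group. It was at 640, 98.4 and 79.6 RPKM in normoxia and 195, 174 and 828 RPKM at day 28. At day 56 it was at 519, 70.6 and 35.1 RPKM. The mean of Mt-nd4l thus exceeded that of Mt-nd6 through 1 high library per group. The only neighbours in the order with separate ranges were Mt-co2 above Mt-cyb and Mt-nd2 above Mt-nd4 in normoxia, and Mt-co1 above Mt-atp6, Mt-co2 above Mt-cyb and Mt-cyb above Mt-nd1 at day 28. At day 56 the ranges of all neighbours overlapped. Between 7 and 11 of the 13 genes were among the 100 genes of highest RPKM in a library, and Mt-co3 held rank 1 in replicate 1 of day 28.

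**Figure D2:**
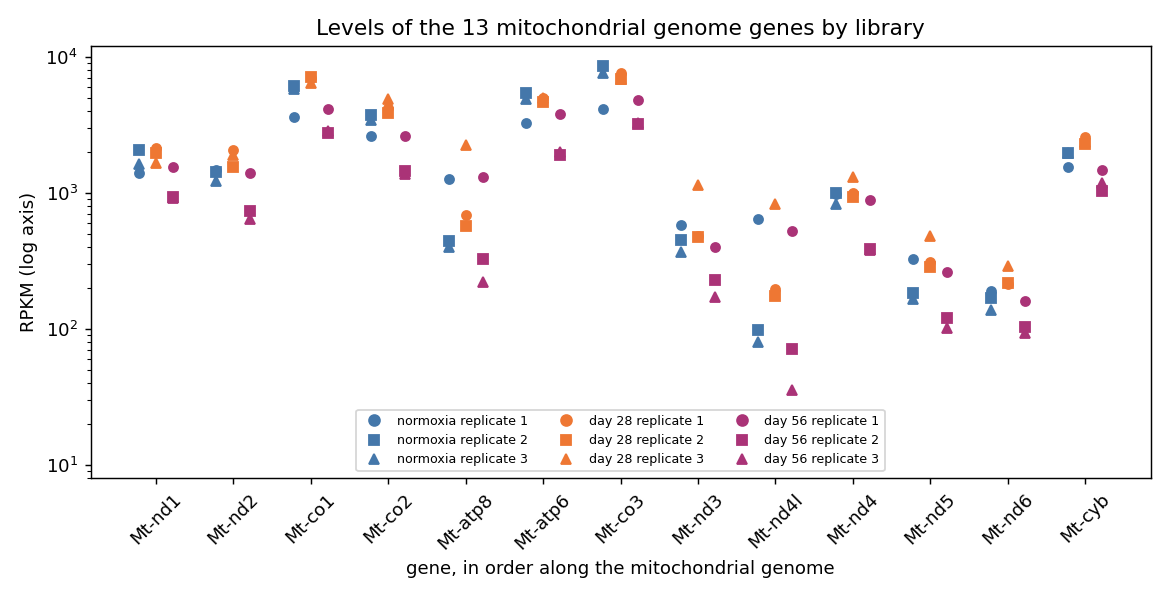
RPKM (log axis) of each mitochondrial genome gene in each library, with genes in their order along the genome, colours for groups and symbols for replicates. Mt-co3 and Mt-co1 were at the top (2743 to 8494 RPKM) and Mt-nd6 was lowest by group mean. Mt-nd4l and Mt-atp8 showed 1 library per group far above its group mates, and in those group mates Mt-nd4l lay below Mt-nd6.

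In tests across all genes, levels were compared in CPM scaled by the trimmed mean of M-values (TMM), and a gene was called at a Benjamini-Hochberg adjusted p under 0.05 in the edgeR quasi-likelihood test. All 13 genes passed the filter on low counts. At day 28, 0 of 13 were called against normoxia, where 0.129% of the 12447 genes tested were. At day 56 also 0 of 13 were called against normoxia, against 7.12% of all genes, and 0 of 13 against day 28, against 0.546%. The counts at an unadjusted p under 0.05 were 0 of 13 at day 28 (28.8% of all genes), 10 of 13 at day 56 against normoxia, all lower (17.6% of all genes were lower at that level), and 0 of 13 between the days (18.5%). DESeq2 called 0 of 13 at day 28 (13.1% of the genes with an adjusted p there), 7 of 13 lower at day 56 against normoxia (9.74% of the genes with an adjusted p were called lower) and 0 of 13 between the days (7.93%). It gave no adjusted p for Mt-nd4l.

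The median log2 fold change over the 13 genes was -0.39 at day 28 against normoxia (11 of 13 below 0, all genes -0.01), -0.86 at day 56 against normoxia (13 of 13 below 0, all genes -0.04) and -0.48 at day 56 against day 28 (13 of 13 below 0, all genes -0.01). Of all genes, 50.4%, 53.0% and 51.6% were below 0 in these comparisons. Both comparisons with normoxia share its libraries. The 2 day 28 values above 0 were those of Mt-atp8 and Mt-nd4l. Library groups that did not overlap were found for 0 of 13 genes at day 28 (23.2% of all genes in either direction) and for 3 of 13 at day 56 against normoxia, all lower (14.9% of all genes). Between the days they were found for 2 of 13, both lower (17.4% of all genes).

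Summed over the 13 genes, the TMM-scaled level was 25157, 50519.6 and 53251 CPM in normoxia, 28642, 27781 and 34110 CPM at day 28, and 29303, 16991 and 18162 CPM at day 56. Replicate 1 of normoxia was below all day 28 libraries, and replicate 1 of day 56 was above it. In bulk RNA of this kind, fewer cells rich in mitochondria and less mitochondrial RNA per cell cannot be told apart.

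Among the complex IV genes, whose products form the catalytic core of cytochrome c oxidase, Mt-co1 was at 6913, 15873 and 17342 CPM in normoxia, 9526, 10013 and 10457 CPM at day 28, and 8766, 5637 and 6108 CPM at day 56. All day 56 libraries were below all day 28 libraries, but replicate 1 of normoxia lay among the treated ones. The log2 fold change was -0.42 at day 28 (SE 0.40, edgeR adjusted p = 0.486), -0.97 at day 56 against normoxia (SE 0.41, adjusted p = 0.143) and -0.55 between the days (SE 0.40, adjusted p = 0.533).

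Mt-co2, the subunit that takes electrons from cytochrome c, stood at 2244, 4279 and 4577 CPM in normoxia, 2527, 2389 and 3538 CPM at day 28, and 2430.3, 1303 and 1324 CPM at day 56. Its groups overlapped in each comparison, through replicate 1 of normoxia and replicate 1 of day 56. The log2 fold change at day 56 was -1.13 against normoxia (SE 0.38), and its adjusted p of 0.0872 in edgeR was the lowest of the 13 genes in the 3 comparisons. Mt-co3 stood at 4083, 11187 and 11548 CPM, then 5256, 4915 and 5707 CPM, then 5121, 3322 and 3557 CPM in the same order. Replicates 2 and 3 of normoxia lay above all other libraries and replicates 2 and 3 of day 56 below them. Its day 56 log2 fold change of -1.16 was the most negative of the 13 (SE 0.42, adjusted p = 0.103 in edgeR).

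For Mt-cyb, the mitochondrial subunit of complex III, the libraries gave 2214, 3757 and 4353 CPM in normoxia, 2572, 2381 and 2858 CPM at day 28, and 2287, 1558 and 1894 CPM at day 56. Day 56 lay below day 28 in all libraries, and replicate 1 of normoxia lay between replicates of day 56. The log2 fold change was -0.40 at day 28 (SE 0.31, edgeR adjusted p = 0.384), -0.85 at day 56 (SE 0.31, adjusted p = 0.105) and -0.44 between the days (SE 0.31, not called).

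Complex V has Mt-atp6, part of the proton channel of ATP synthase, and the small subunit Mt-atp8. Mt-atp6 was at 2772, 6166 and 6546 CPM in normoxia, 2988, 2894 and 3615 CPM at day 28, and 3519, 1703 and 1907 CPM at day 56. As for Mt-co3, replicates 2 and 3 of normoxia were above all other libraries and replicates 2 and 3 of day 56 below them. The day 56 log2 fold change was -1.12 (SE 0.41, edgeR adjusted p = 0.106). Mt-atp8 did not follow this pattern: it read 321, 151 and 158 CPM in normoxia, 122, 105 and 486 CPM at day 28, and 361, 87.9 and 63.3 CPM at day 56. In each group 1 library lay far above the other 2, and the groups overlapped. Its log2 fold changes of 0.17 at day 28 (SE 0.75) and -0.30 at day 56 (SE 0.75) were well within their errors.

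The complex I genes encode core membrane subunits of NADH dehydrogenase. Mt-nd1 was at 1670.1, 3299 and 3035 CPM in normoxia, 1784, 1694 and 1672 CPM at day 28, and 2029.6, 1178 and 1218 CPM at day 56. The day 28 libraries lay close together, just at or above replicate 1 of normoxia and well below its mates. The log2 fold change was -0.64 at day 28 (SE 0.33, edgeR adjusted p = 0.220, the lowest of the 13 in that comparison) and -0.86 at day 56 (SE 0.33, adjusted p = 0.118).

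Mt-nd2 was at 1895, 2489.7 and 2452 CPM in normoxia, 1881, 1454 and 2093 CPM at day 28, and 1975, 1005 and 938 CPM at day 56, and its groups overlapped in each comparison. Mt-nd4 was at 1686, 2294 and 2213 CPM, then 1198, 1167 and 1915 CPM, then 1649, 703 and 728 CPM. Every day 56 library was below every normoxia library for Mt-nd4, though replicate 1 of both groups came close. The day 56 log2 fold change was -0.80 for Mt-nd2 (SE 0.33, edgeR adjusted p = 0.137) and -1.01 for Mt-nd4 (SE 0.38, adjusted p = 0.112).

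Mt-nd3 was at 251, 260.0 and 250.4 CPM in normoxia, 146, 149 and 417 CPM at day 28, and 189, 105 and 83.2 CPM at day 56. The normoxia libraries were nearly equal, the day 56 libraries all lay below them, and day 28 lay on both sides. The log2 fold change was -0.10 at day 28 (SE 0.43, edgeR adjusted p = 0.892) and -1.01 at day 56 (SE 0.44, adjusted p = 0.150).

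Mt-nd5 was at 747, 566 and 591 CPM, then 495, 471 and 931 CPM, then 652, 290.4 and 261 CPM. Mt-nd6, the gene of the other strand, was at 122, 148 and 139 CPM, then 96.5, 101 and 159 CPM, then 114, 71.4 and 67.3 CPM. Mt-nd6 had no overlap between day 56 and normoxia, whereas Mt-nd5 did. The day 56 log2 fold change was -0.69 for Mt-nd6 (SE 0.26, edgeR adjusted p = 0.112) and -0.66 for Mt-nd5 (SE 0.40, adjusted p = 0.275). As a share of mitochondrial exon reads, Mt-nd6 made up 0.347% ± 0.122 in normoxia, 0.389% ± 0.0677 at day 28 and 0.393% ± 0.0249 at day 56 (SD, n = 3). These shares differed by less than their spread (exact permutation p = 0.6 at day 28 and 0.5 at day 56, each against normoxia).

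Within the runs of column numbers, the summed level of the 13 genes went from 25157 CPM in replicate 1 of normoxia to 29303 CPM in replicate 1 of day 56, a log2 ratio of 0.22. In the other run, the mean of replicates 2 and 3 went from 51885 CPM to 17576 CPM, a log2 ratio of -1.56. By gene, 8 of 13 were higher at day 56 in the first pair, with log2 ratios from -0.41 to 0.34. In the second run 13 of 13 were lower, with log2 ratios from -1.82 to -1.03. With the run as a term in the edgeR fit of normoxia and day 56, an alternative chosen after seeing the data, 0 of 13 were called (6.53% of all genes), the lowest adjusted p was 0.0520 and the median log2 fold change -0.86.

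One library per group stood apart in the make-up of its mitochondrial reads: replicate 1 of normoxia, replicate 3 of day 28 and replicate 1 of day 56. Mt-nd4l, a small complex I subunit, made up 0.946%, 0.764% and 0.719% of mitochondrial exon reads there and 0.0804% to 0.178% in the other 6 libraries. Mt-atp8 made up 1.28%, 1.42% and 1.23% there and 0.297% to 0.517% in the others. In all, 5 of the 13 genes (Mt-atp8, Mt-nd3, Mt-nd4l, Mt-nd4 and Mt-nd5) had their 3 highest shares in these 3 libraries. The libraries were noticed on these very values, so the contrast is a description with no test.

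In CPM, Mt-nd4l was at 238, 49.1 and 46.1 in normoxia, 50.9, 47 and 261 at day 28, and 211, 27.9 and 14.6 at day 56. Its highest library was 17.8 times its lowest, for Mt-atp8 the factor was 7.68, and for the other members it lay between 2.36 and 5.01. Among 5486 genes with a mean over 20 CPM, Mt-nd4l was the 1 gene more than 1.5 log2 units above the mean of its group mates in each of the 3 libraries, by 2.31, 2.40 and 3.35. These cut-offs were chosen after seeing the values, and the 3 libraries were noticed on Mt-nd4l itself among others. The count is therefore a description with no test. Short nuclear genes over the same mean level were not higher as a set in all 3 libraries. The 28 nuclear genes with exons of at most 400 bases had median differences of -1.58, 0.11 and -0.23 in the same libraries. For the 5036 with exons over 1000 bases these were 0.07, -0.02 and 0.01. The 409 of lengths between had -1.14, -0.06 and -0.20. Shorter nuclear genes were thus lower in replicate 1 of normoxia than in its mates, opposite to Mt-nd4l. Whether exon length has a part in these values was not tested.

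The overlapping pairs show the contrast per length. The RPKM ratio of Mt-nd4l to Mt-nd4 was 0.655, 0.0993 and 0.0967 in normoxia, 0.197, 0.187 and 0.632 at day 28, and 0.593, 0.184 and 0.0931 at day 56. The ratio of Mt-atp8 to Mt-atp6 was 0.387, 0.0819 and 0.0807 in normoxia, 0.136, 0.121 and 0.449 at day 28, and 0.342, 0.172 and 0.111 at day 56. Between groups, neither ratio differed beyond its spread (exact permutation p from 0.5 to 1). In the other 6 libraries the smaller gene of each pair thus had 0.0807 to 0.197 times the RPKM of its partner, although the pairs are known to share messengers.

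How reads were assigned differed in the same libraries. Reads given to Mt-atp8 but left out of its exon count were 25.4%, 21.9% and 26.5% of its gene reads in the 3 libraries named and 45.3% to 51.6% in the others. For Mt-nd4l they were 17.1%, 20.6% and 20.3% against 30.2% to 43.6%. For Mt-atp6 the order was the opposite, at 6.65%, 6.20% and 6.73% against 1.18% to 3.47%. With these reads added back, the per-length ratio of Mt-nd4l to Mt-nd4 was 0.748, 0.746 and 0.703 against 0.134 to 0.285. That of Mt-atp8 to Mt-atp6 was 0.484, 0.539 and 0.434 against 0.151 to 0.314. The 3 libraries were thus still above the other 6 for both pairs. The factor between their lowest ratio and the highest of the other 6 was smaller than in the RPKM ratios. As a plain difference this gap was narrower for Mt-atp8 to Mt-atp6 but not for Mt-nd4l to Mt-nd4.

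Multiple mapping touched 2 of the 13 genes. Mt-nd4l had 58.3%, 64.2% and 62.7% uniquely mapped exon reads in the 3 libraries and 77.1% to 88.5% in the others, and Mt-nd5 97.9% to 99.0% in all, while the other 11 genes had 100%. Mt-nd4l is therefore an uncertain member, as part of its reads also fit another place. Over the 13 genes together, 99.6% to 99.97% of exon reads were unique, with no difference between groups beyond the spread (exact permutation p from 0.7 to 1). On unique reads alone the day 56 log2 fold change of Mt-nd4l was -0.34 (SE 0.91) in place of -0.40 (SE 1.07).

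**Figure D3:**
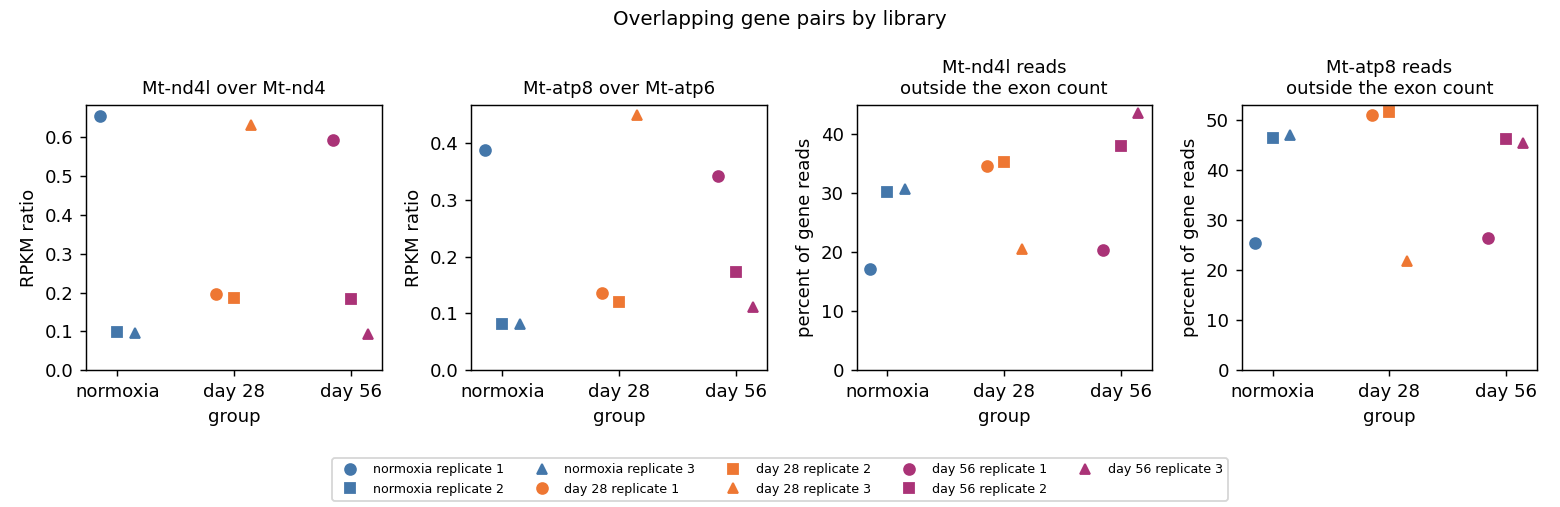
Overlapping gene pairs by library: RPKM ratio of Mt-nd4l to Mt-nd4 and of Mt-atp8 to Mt-atp6, and percent of the gene reads of Mt-nd4l and Mt-atp8 that fall outside the exon count. Replicate 1 of normoxia, replicate 3 of day 28 and replicate 1 of day 56 had Mt-nd4l to Mt-nd4 ratios of 0.593 to 0.655, against 0.0931 to 0.197 in the other 6 libraries.

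The results rest on these libraries to different degrees. Without replicate 1 of normoxia, 5 of 13 genes were called lower at day 28 in edgeR (Mt-nd1, Mt-co1, Mt-atp6, Mt-co3 and Mt-cyb, where 22.2% of all genes were called lower). At day 56 against normoxia, 8 of 13 were called lower without it (these 5 with Mt-nd2, Mt-co2 and Mt-nd4, where 21.2% of all genes were). With any other single library left out, 0 of 13 were called in any comparison. Without all 3 libraries, 10 of 13 were called lower at day 28 (24.0% of all genes), 13 of 13 at day 56 against normoxia (22.5%) and 9 of 13 between the days (3.34%). The median log2 fold changes were then -0.76, -1.37 and -0.68. This last set of libraries was chosen after seeing the data and on the members' own values, so its calls are no independent evidence, and 2 libraries per group remain. Those that remain in normoxia and day 56 are the libraries with column numbers 61 to 64. The day 56 calls against normoxia thus compare the same libraries as the log2 ratios given within that run, and are not a separate result.

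**Figure D4:**
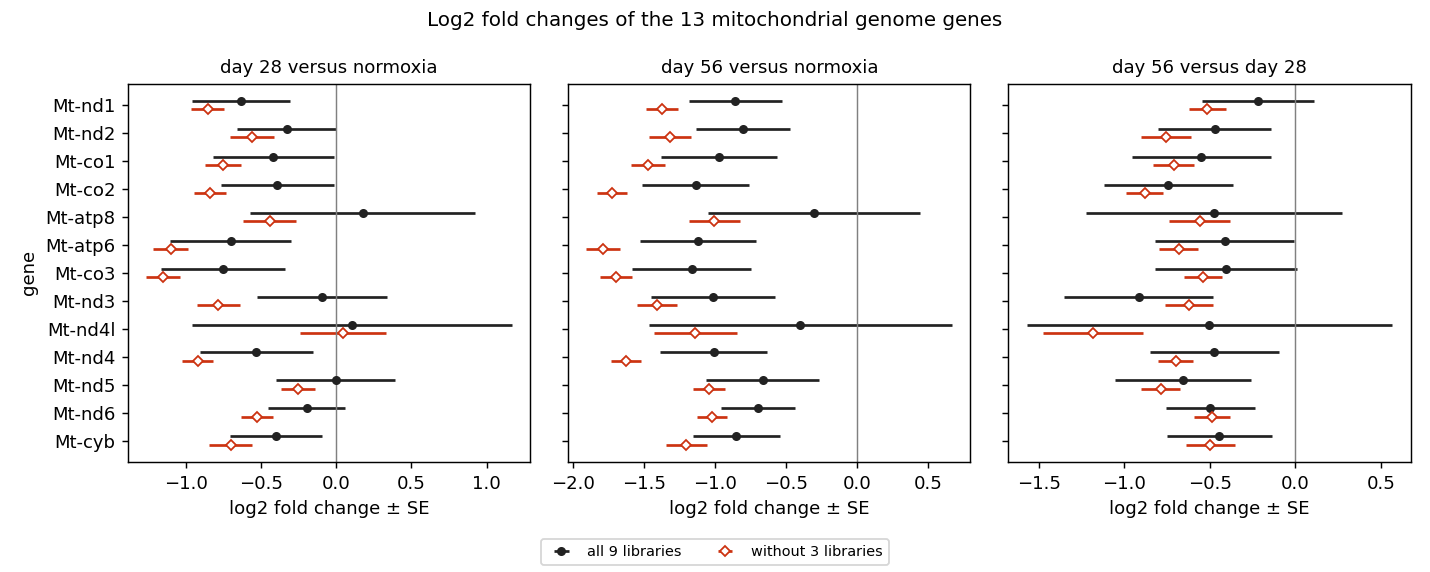
Log2 fold change ± SE (edgeR) of each gene in the 3 comparisons, from all 9 libraries (filled) and without replicate 1 of normoxia, replicate 3 of day 28 and replicate 1 of day 56 (open), which were chosen on these genes' own values. From all libraries 0 of 13 genes were called in each comparison, and all 13 values at day 56 against normoxia were below 0 (-1.16 to -0.30).

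Few nuclear genes of the same complexes passed the edgeR test with all libraries, and more did in other fits. Of 78 listed subunits of complexes I to V, 71 were in the table and 70 passed the filter. At day 28, 0 of 70 were called against normoxia in edgeR (0.129% of all genes). There 41 had an unadjusted p under 0.05 (28.8% of all genes), DESeq2 called 20 lower (7.02%), 67 of 70 were below 0 (50.4%) and the median log2 fold change was -0.73, beside -0.39 for the mitochondrial genes. At day 56, 1 of 70 was called lower in edgeR (3.70% of all genes), 39 had an unadjusted p under 0.05 (30.9%) and DESeq2 called 14 lower (9.74%). The 1 gene was Ndufb3, an accessory subunit of complex I (36.8 ± 16.8 against 15.3 ± 1.67 CPM, SD, n = 3, log2 fold change -1.27, SE 0.33, adjusted p = 0.0494). That call was kept in 1 of 9 fits with a library left out. The nuclear median was -0.74 there, with 65 of 70 below 0 (53.0% of all genes), beside -0.86 for the mitochondrial genes. Between the days it was 0.04, beside -0.48, with 0 called in edgeR (0.546% of all genes), 4 at an unadjusted p under 0.05 (18.5%) and 1 called by DESeq2 (7.93%). Without the 3 libraries named above, 59 of 70 were called lower at day 28 (24.0% of all genes) and 56 of 70 at day 56 against normoxia (22.5%). Between the days 0 of 70 were then called lower (3.34%) and 5 of 70 higher (4.68%). Whether the nuclear and mitochondrial medians differ was not tested. The all-gene values set beside the nuclear lists were not matched for exon length. Replicate 1 of normoxia differed from its mates by length, with a median of -1.58 log2 units for nuclear genes of at most 400 bases. That median was 0.07 for nuclear genes over 1000 bases and -1.14 for those between. What part exon length has in the nuclear falls was not tested.

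The ratio of summed RPKM of mitochondrial to nuclear subunits put the complexes side by side within each library. For complex IV it was 12.6, 13.6 and 13.3 in normoxia, 16.3, 12.7 and 18.0 at day 28, and 13.4, 7.83 and 7.10 at day 56. The day 56 replicates 2 and 3 were thus the lowest, with replicate 1 of that group inside the normoxia range. For complex I it was 5.55 ± 2.08, 6.64 ± 2.12 and 4.69 ± 2.65, for complex III 4.39 ± 0.723, 5.65 ± 0.891 and 3.66 ± 1.09, and for complex V 3.17 ± 0.633, 3.92 ± 1.07 and 2.56 ± 1.62 in the 3 groups (SD, n = 3). In these 3 complexes the 3 libraries that stood apart had ratios above those of both their group mates. Their nuclear sums were also below those of both mates in each of these complexes. For complex I these were 700 against 1182 and 1058 RPKM in normoxia and 849 against 1029 and 1165 at day 28. At day 56 they were 667 against 756 and 793 RPKM. In replicate 1 of normoxia the mitochondrial value was itself below its mates for complex III (1546 against 1956 and 1951 RPKM) and for complex V.

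**Figure D5:**
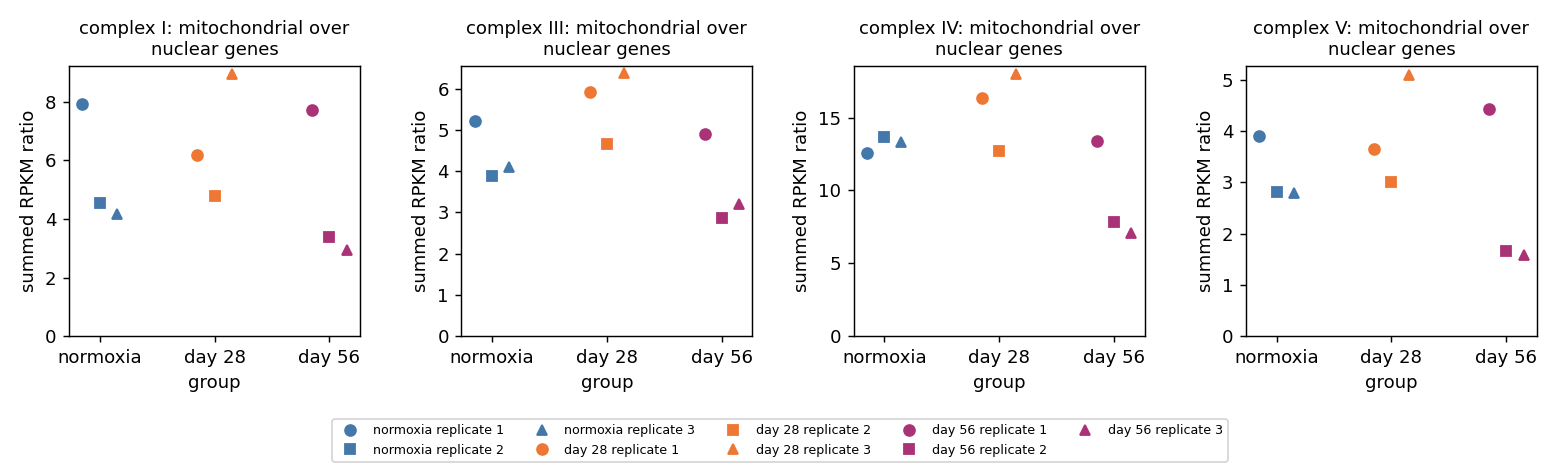
Ratio of summed RPKM of mitochondrial to nuclear subunit genes for complexes I, III, IV and V in each library, with 33, 8, 10 and 16 nuclear genes. Replicates 2 and 3 of day 56 had the lowest ratios in each complex, for complex IV 7.83 and 7.10.

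Among nuclear genes that read, process and maintain the mitochondrial genome, 70 of 76 listed were tested. At day 28, 0 of 70 were called against normoxia in edgeR (0.129% of all genes), 22 had an unadjusted p under 0.05 (28.8%), and DESeq2 called 8 lower and 1 higher (13.1% in either direction). Of these 70 genes, 50 were below 0 (50.4% of all genes), with a median log2 fold change of -0.33 beside -0.01 for all genes. At day 56, 9 fell (3.70% of all genes) and 1 rose (3.42%) in edgeR, with 50 of 70 below 0 (53.0%) and a median of -0.36 beside -0.04. There 37 had an unadjusted p under 0.05 (30.9% of all genes), and DESeq2 called 23 lower and 3 higher (17.9% in either direction). Without the 3 libraries edgeR called 36 lower and 12 higher at day 56 (22.5% and 22.3% of all genes), and 36 lower and 11 higher at day 28 (24.0% and 23.6%). Between the days 0 of 70 were called in edgeR (0.546% of all genes), 11 had an unadjusted p under 0.05 (18.5%), and DESeq2 called 3 lower and 1 higher (7.93% in either direction), with a median of -0.10 beside -0.01.

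The falls included 5 of 16 genes of transcription and replication, beside 3.70% of all genes that were called lower. Mgme1, an exonuclease of mitochondrial DNA maintenance, fell from 11.7 ± 2.29 CPM in normoxia to 4.07 ± 0.591 CPM at day 56 (SD, n = 3, log2 fold change -1.52, SE 0.21, edgeR adjusted p = 0.00709), and this call was kept in 9 of 9 fits with a library left out. Mterf2, of the mitochondrial termination factor family, fell from 8.92 ± 2.64 to 2.69 ± 0.517 CPM (-1.73, SE 0.27, adjusted p = 0.0119, kept in 5 of 9). Tefm, the transcription elongation factor, fell from 3.24 ± 0.374 to 1.22 ± 0.149 CPM (-1.41, SE 0.33, adjusted p = 0.0380, kept in 3 of 9).

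Lrpprc, which stabilises mitochondrial messengers, fell from 85.8 ± 20.4 to 45.7 ± 2.33 CPM (SD, n = 3, log2 fold change -0.91, SE 0.19, edgeR adjusted p = 0.0259, kept in 3 of 9 fits). Pnpt1, the polynucleotide phosphorylase of mitochondrial RNA decay, fell as well (38.2 ± 8.55 to 18.7 ± 6.35 CPM, log2 fold change -1.03, adjusted p = 0.0451, kept in 2 of 9). Lrpprc and Pnpt1 were the 2 called lower among 17 tested genes of RNA processing, stability and decay (3.70% of all genes). Of 28 genes of mitochondrial translation, 2 fell (3.70% of all genes). These were Taco1, a translational activator of Mt-co1 (-1.46, SE 0.28, adjusted p = 0.0209), and the ribosome recycling factor Gfm2 (-0.93, SE 0.20, adjusted p = 0.0281), each kept in 4 of 9.

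The core transcription factors did not pass the test at day 56. Tfam was at -0.74 on the log2 fold change scale (SE 0.22, edgeR adjusted p = 0.0648), Tfb2m at -0.70 (SE 0.21, adjusted p = 0.0721) and Polrmt at 0.58 (SE 0.31, adjusted p = 0.222). Slirp, the partner of Lrpprc, was at -1.05 (SE 0.38, adjusted p = 0.104). At day 28 these were -0.59, -0.41, 0.30 and -0.85 in the same order, with adjusted p from 0.130 to 0.510. Among 9 tested regulators of mitochondrial biogenesis, 1 rose at day 56 (3.42% of all genes). This was Myc, a broad growth regulator, from 67.7 ± 13.1 to 167 ± 10.7 CPM (1.30, SE 0.27, adjusted p = 0.0257, kept in 4 of 9). Ppargc1a, the coactivator known for driving mitochondrial biogenesis, had at most 1 exon read in a library and was not tested. Of 10 mitophagy genes, 1 fell at day 56 (3.70% of all genes). This was Fundc1, a receptor on the outer membrane (-1.20, SE 0.29, edgeR adjusted p = 0.0407, kept in 2 of 9).

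Markers of blood cell types are set beside these values. At day 56 against normoxia 1 of 4 tested B cell markers was called (7.12% of all genes in either direction). This was Cd79b, which fell from 479 ± 192 to 158 ± 29.9 CPM (SD, n = 3, edgeR adjusted p = 0.0257). The other 35 of 36 markers tested were not called there. By edgeR 0 of 36 were called at day 28 against normoxia (0.129% of all genes) or between the days (0.546%). At an unadjusted p under 0.05 there were 20 of 36 at day 28 (28.8% of all genes), 4 of 36 at day 56 (30.9%) and 17 of 36 between the days (18.5%). DESeq2 called 13, 2 and 14 (13.1%, 17.9% and 7.93% of the genes with an adjusted p). At day 28 against normoxia DESeq2 called 6 of 7 platelet, 3 of 5 erythroid and 1 of 4 B cell markers lower. It called 3 of 5 monocyte markers higher there. At day 56 against normoxia its calls were 2 of 4 B cell markers, both lower. Between the days DESeq2 called 6 of 7 platelet, 2 of 5 NK cell and 1 of 5 erythroid markers higher and 5 of 5 monocyte markers lower at day 56. Summed monocyte markers were at 2006 to 4267 CPM in normoxia, 3013 to 9915 CPM at day 28 and 1565 to 2497 CPM at day 56. Their part in the mitochondrial values was not tested, nor was that of the platelet levels given above. The globin share entered only as a covariate. With the intron share of each library as a covariate, the members' median was 0.01 at day 28 and -0.73 at day 56, both against normoxia, and -0.64 between the days. With the log2 globin share as a covariate it was -0.07, -0.86 and -0.90 in the same order. The globin share at day 28 lay below all normoxia libraries (1.42% to 29.0% against 43.0% to 56.3%). The intron share was 14.2% to 24.9% against 5.37% to 14.6%. Such fits cannot well separate either share from day 28. The day 28 SE of Mt-nd1 was 0.57 with the intron share and 0.56 with the globin share, beside 0.33 without a covariate. In both fits 0 of 13 genes were called in each comparison (0.00803% of all genes at day 28 in both, 1.11% and 4.04% at day 56, and 0.490% and 0.00% between the days).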

How the data were processed

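RNA sequencing of 9 PBMC libraries was analysed from 1 table that the authors deposited for the series. Per the file headers, each gene has raw counts of exon reads, of exon reads that map once and of exon plus intron reads, together with RPKM computed by the authors. Unique exon reads of replicate 1 in each group were read as deposited estimated counts, because a broken line carried a fraction there, and all values used were whole. The build was rn6 and FastQC is listed, per the submitters' processing notes. Aligner, strand setting and the handling of nuclear copies of mitochondrial sequence: not given in the sources used here. Of 22085 lines, 8 were broken and left out, and 81 further columns of values per sample were not used.

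The members are all lines on chromosome MT. The members and the gene lists were chosen with earlier results of these data known. The start in the table counts from 0 (in 3157 of 3157 single-exon genes end minus start equals the exon length), so 1 was added. The RefSeq tables used for names held 0 of the 13 genes.

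Counts of all genes were fitted in edgeR 4.0.16 (R 4.3.3) with TMM factors, filterByExpr, robust glmQLFit and glmQLFTest and a mean for each group, all 9 libraries together. Benjamini-Hochberg adjustment ran over 12447 genes, with calls at 0.05. The fit was run on simulated counts with the same spread for all genes and changes of 2 or 3 log2 units. It recovered 94.4% and 100% of these, and 3.47% of its calls were false. Changes as small as those of the members, or libraries that stand apart, were not simulated. Standard errors came from the F statistic. DESeq2 1.42.0 was an alternative, beside other scalings, no filter, unique or exon plus intron reads, covariates, a replicate block and each library left out. Single values per library were compared by exact two-sided permutation tests. Depth was 22148400 to 39947430 exon reads, so that 3 reads equalled 0.0751 to 0.135 CPM before TMM scaling. All pairs of libraries within a group differed by more than sampling noise. Every member is named. Of each nuclear list, up to 3 called genes per direction with the greatest change are named, and Tfam, Polrmt, Tfb2m, Lrpprc, Slirp and Ppargc1a always. A planned share of mitochondrial ribosomal RNA was not computed, as no such gene is on a line of chromosome MT here.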

Additional observations from a re-analysis of the deposited data

Results flagged for a closer look

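The mitochondrial share of all exon reads had mean differences from normoxia of opposite sign at the 2 days. It was 1.42 percentage points above normoxia at day 28 and differed by -1.01 points at day 56, so the day 56 difference was -2.43 points relative to that of day 28. Neither passed its test (exact permutation p = 0.1 and 0.2), and day 56 overlapped normoxia through its replicate 1. Both share the normoxia libraries, and their difference was not tested beyond the comparison of the days themselves. Outside the globin genes both differences were below 0.

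Mt-nd1 as a percent of mitochondrial exon reads also had mean differences of opposite sign, -0.55 points at day 28 (5.74% ± 0.731 against 6.29% ± 0.514, SD, n = 3) and 0.56 points at day 56 (6.85% ± 0.130). The day 28 libraries (4.90% to 6.23%) overlapped those of normoxia (5.70% to 6.64%), while those of day 56 (6.70% to 6.93%) lay above normoxia. The 2 differences were 1.11 points apart, which was not tested.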

How the results depend on the processing

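Counts of genes called depended strongly on the processing. Of the 12447 genes tested, 16 were called at day 28, 886 at day 56 (both against normoxia) and 68 between the days. DESeq2 called 1661, 2328 and 1057. At day 28 the count was 8 with RLE factors, 79 with upper-quartile factors, 151 with no filter, 72 on unique exon reads and 2 with only the 2 groups compared. With only the 2 groups compared it was 348 at day 56 and 590 between the days. With the intron share as a covariate it was 1 at day 28 and 138 at day 56, and with the log2 globin share 1 at day 28, 503 at day 56 and 0 between the days. Without the 3 libraries that stood apart, a choice made after seeing the data, it was 5981, 5634 and 1008. The cause of these shifts was not tested.

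Of the 13 mitochondrial genes, 7 were called at day 56 against normoxia by DESeq2, and 10, 13 and 9 in the 3 comparisons without those 3 libraries. Under every other alternative that kept all libraries, 0 of 13 were called. With single libraries left out, the count ran from 0 to 5 at day 28 and from 0 to 8 at day 56, and was 0 between the days. For all genes it ran from 2 to 5732, from 85 to 5453 and from 3 to 1002, each highest without replicate 1 of normoxia.

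At day 56 against normoxia all 13 values stayed below 0 wherever all libraries were kept. At day 28, Mt-co1 (0.21), Mt-co2 (0.18), Mt-nd3 (0.39), Mt-nd5 (0.0076), Mt-nd6 (0.11), Mt-cyb (0.11) and Mt-nd4l (-0.24) changed sign with the intron covariate, and Mt-nd3 (0.82), Mt-nd5 (0.55) and Mt-nd6 (0.28) with the globin covariate. Those covariate fits cannot well separate the intron or globin share from day 28. Mt-nd5 was near 0 in any case: 0.024 with DESeq2, 0.017 with RLE factors and 0.016 with no filter. It was 0.0067 with totals and factors that leave out the mitochondrial and globin genes. Mt-atp8 was -0.44 without the 3 libraries, where the unique share of mitochondrial reads differed by -0.0196 points at day 28 and -0.011 points at day 56.

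Leaving out single libraries moved Mt-atp8 from -0.89 to 0.65 at day 28, from -1.48 to 0.16 at day 56 and from -1.65 to 0.59 between the days. For Mt-nd4l the same ranges were -1.18 to 1.36, -2.39 to 0.84 and -2.49 to 0.79. At day 28 Mt-nd3 ran from -0.79 to 0.19 and Mt-nd5 from -0.39 to 0.17. The group difference in the Mt-nd6 share ran from -0.00042 to 0.112 points at day 28 and from -0.0219 to 0.0425 between the days. The group difference in the unique share ran from -0.101 to 0.115, from -0.0926 to 0.124 and from -0.0731 to 0.0898 points.

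Same-numbered libraries deviated together in 4 of 9 pairs (correlation over 0.1, range -0.173 to 0.223), and 4 of 9 libraries correlated best with a library of their own number, so the numbers were not taken as a pairing. With a replicate block 223, 540 and 186 genes were called, 0 of 13 members in each comparison, and Mt-nd5 was 0.0040 at day 28.

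With 3 libraries per group the precision is limited. The lowest count of a member was 436 exon reads, for Mt-nd4l in replicate 3 of day 56. The day 28 libraries have column numbers of their own, so that what these stand for and day 28 cannot be told apart. Mt-nd4l, Mt-atp8 and Mt-nd6 carry the counting doubts given above.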
